A study of Mus musculus with 6 samples.

Results

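The proliferins are placental hormones of the prolactin family. The genes considered here were the 4 proliferin genes Prl2c2, Prl2c3, Prl2c4 and Prl2c5, taken by symbol from the expression table of fibroadipogenic progenitors (FAPs). Of these, 3 were among the 16894 genes listed. Prl2c4 was not listed, and RefSeq (GRCm38.p6) gives that symbol as another name of Prl2c3. The genes were picked for their higher level in senescent than in control FAPs, so that difference is described below and is not tested. RNA of 6 cultures of FAPs was sequenced, 3 of control (non-senescent) FAPs and 3 of senescent FAPs. The FAPs of both groups came from limb muscles of male and female C57BL/6 mice aged 3 to 6 months, were sorted with magnetic beads as CD45-/CD31-/α7-integrin-/SCA-1+ cells, and were grown at low oxygen in medium with serum and bFGF. Senescent FAPs had received 20 μM of etoposide, which breaks DNA through topoisomerase II, for 48 h and were then kept for 5 days without it. The sources do not state what the control cultures received in its place, or whether the cultures of a group came from different mice, so the p-values below measure only the spread between these cultures, which may be technical.

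Proliferins are secreted glycoproteins of the prolactin and growth hormone family. In mice the trophoblast giant cells of the placenta are their best known source, and growth factors and serum also induce them in cultured fibroblasts, from which they took their name. They bind the mannose 6-phosphate receptor that also takes up IGF2 (Igf2r), and they stimulate the growth of blood vessels. Humans carry no proliferin genes.

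The 3 genes lie in a row within 401 kb of chromosome 13 (GENCODE M21 on GRCm38, the same assembly as the mm10 named in the submitters' processing notes). Prl2c3 (ENSMUSG00000056457.6) spans positions 12790816 to 12800079 and Prl2c2 (ENSMUSG00000079092.4) positions 12996125 to 13005383, both on the minus strand. Prl2c5 (ENSMUSG00000055360.13) lies at 13182715 to 13191923 on the plus strand. Each has 5 exons. Of the 14 genes annotated in this span, 9 are pseudogenes, and only the 3 proliferin genes were listed in the expression table.

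The coding sequences show how little separates the genes. Prl2c2 and Prl2c3 each encode 224 codons, and their coding bases differ at 3 of 672 positions, an identity of 99.6%. The substitutions, counted from the A of the start codon with the Prl2c2 base first, are T14C, C200A and T319G. Prl2c5 lacks 6 coding bases of Prl2c2 and differs at 20 of the other positions (97.0% identity). A stretch of 150 coding bases that holds the second and the third of these substitutions is printed below from GENCODE M21 transcripts, coding positions 192 to 341 in each gene, to show on what few bases the assignment of a read can rest. Capitals mark the 10 positions at which the 3 genes are not all alike.
Prl2c2: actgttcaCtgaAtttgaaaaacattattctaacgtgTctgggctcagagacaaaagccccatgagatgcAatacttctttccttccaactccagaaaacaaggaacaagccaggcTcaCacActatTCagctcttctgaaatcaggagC
Prl2c3: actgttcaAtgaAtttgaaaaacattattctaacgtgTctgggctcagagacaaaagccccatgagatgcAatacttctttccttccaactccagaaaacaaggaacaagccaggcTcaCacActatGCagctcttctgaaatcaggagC
Prl2c5: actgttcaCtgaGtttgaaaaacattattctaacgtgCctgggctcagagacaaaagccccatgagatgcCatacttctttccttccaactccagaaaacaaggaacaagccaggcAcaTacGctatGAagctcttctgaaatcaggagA

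Every stretch of 50 bases of each transcript was looked up in all other GENCODE M21 transcripts. In Prl2c2, 10.5% of the 793 stretches occurred in no other gene. The share was 21.4% in Prl2c3 and 61.4% in Prl2c5. Prl2c2 shared 80.1% of its stretches with Prl2c3 and 18.5% with Prl2c5. With stretches of 100 bases, 33.6% of Prl2c2, 37.7% of Prl2c3 and 91.3% of Prl2c5 were found in no other gene. The read length and the rule by which reads that fit several genes were counted are not given in the sources used here. The division of reads between Prl2c2 and Prl2c3 is therefore uncertain, while their sum does not depend on that division. Prl2c5 shared 18.5% of its own stretches of 50 bases with Prl2c2 and 11.7% with Prl2c3. Its count is therefore uncertain as well, since reads of those genes could have been counted for it. The sum would be too low if such reads were discarded, and too high if they were counted for each gene they fit. Reads could also be shared with Gm7040, with 23.8% of the Prl2c2 stretches of 50 bases, and with Prl2c1, with 13.2%. Neither of these genes was listed.

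**Figure D1:**
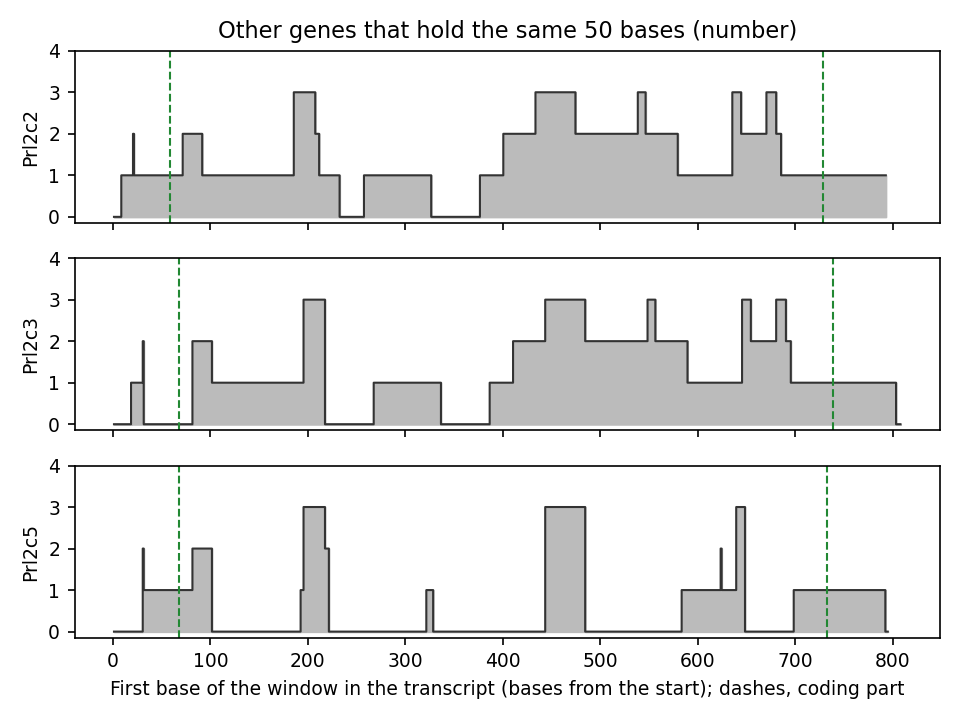
Number of other genes that contain the same 50 bases (vertical axis) by the first base of the stretch in the transcript (horizontal axis, in bases) for Prl2c2, Prl2c3 and Prl2c5, with dashed lines at both ends of the coding part. Stretches at 0 are found in no other gene, and they make up 10.5% of Prl2c2, 21.4% of Prl2c3 and 61.4% of Prl2c5.

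The promoters are as alike as the transcripts. RefSeq sequences were at hand for Prl2c3 and Prl2c5, and not for Prl2c2. The 250 bases before the start site are shown because AP-1, a dimer of Jun and Fos proteins, is a known activator of proliferin promoters. Capitals mark TATAA and the letters TGANTCA, a loose form of the AP-1 site in which any base may stand in the middle. Both were searched on either strand. The Prl2c3 sequence is chr13:12800080-12800329 on the minus strand and the Prl2c5 sequence is chr13:13182466-13182715 on the plus strand (GRCm38.p6).
Prl2c3: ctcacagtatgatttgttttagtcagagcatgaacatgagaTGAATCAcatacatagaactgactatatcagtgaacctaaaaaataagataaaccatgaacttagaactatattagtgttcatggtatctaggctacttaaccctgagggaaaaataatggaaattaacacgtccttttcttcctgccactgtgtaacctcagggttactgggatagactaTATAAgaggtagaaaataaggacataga
Prl2c5: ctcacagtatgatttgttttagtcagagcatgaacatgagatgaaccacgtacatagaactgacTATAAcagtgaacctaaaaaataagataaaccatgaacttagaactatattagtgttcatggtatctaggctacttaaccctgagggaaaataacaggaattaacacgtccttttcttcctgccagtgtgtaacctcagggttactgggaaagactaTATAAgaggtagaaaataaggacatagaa

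Over the 300 bases given by RefSeq, 250 before and 50 after the start site, the 2 promoters were 96.0% identical. Prl2c3 held 1 match to TGANTCA, with an A in the middle, beginning 209 bases before the start site, and Prl2c5 held none. At that place Prl2c5 differs by the substitution T5C, counted from the first base of the Prl2c3 match. Of all 32851 promoters in the RefSeq table, 7.81% held the letters TGANTCA. Both promoters held TATAA just before the start site, and 24.9% of all promoters held it at some position. The STAT motif GAS matched once in Prl2c3, after the start site, and not in Prl2c5, against 8.30% of all promoters. The interferon motif ISRE, found in 3.44%, matched in neither. These matches describe the sequence and do not show that a factor binds there.

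Values in the table are CPM, counts scaled to a common library size, which the authors had made with edgeR. Each value was a whole multiple of 1 read, so the reads could be recovered. Between 41412179 and 59912520 reads fell on listed genes per library, and 1 read was worth 0.0167 to 0.0225 CPM. Values per culture are given in the order of replicates 1, 2 and 3. Log2 fold changes below are senescent minus control on the log2(CPM + 0.5) scale, which understates the change of low genes, and adjusted p-values are from limma over the 14776 genes that reached 0.5 CPM in 3 or more libraries, with Benjamini-Hochberg adjustment. Intervals of read shares cover counting error only. A bulk sample cannot tell apart fewer cells with a transcript and less of it per cell.

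Proliferin transcripts were far more abundant in each senescent than in each control culture. Summed over the 3 genes, the control cultures had 5.47, 37.9 and 2.24 CPM and the senescent cultures 291, 217 and 194 CPM. All senescent cultures lay above all control cultures, and the lowest senescent sum was 5.13 times the highest control sum. The means were 15.2 ± 19.7 CPM in control FAPs and 234 ± 50.4 CPM in senescent FAPs (SD, n = 3 each), with a ratio of 15.4. Without control replicate 2 the ratio was 60.7. On the log2 scale the difference was 4.75, and it lay between 3.93 and 5.84 when each library was left out in turn, the highest without control replicate 2.

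Prl2c2 had 3.37, 26.0 and 1.20 CPM in the control cultures, which is 151, 1367 and 67 reads. It had 182, 123 and 107 CPM in the senescent cultures, or 9166, 7359 and 4755 reads. In control replicate 3 it was number 12727 among the 16894 listed genes by CPM, and in senescent replicate 1 number 924. The log2 fold change was 4.59.

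Prl2c3, which encodes a nearly identical hormone, followed the same order. Its control values were 1.96, 11.7 and 1.02 CPM and its senescent values 107, 93.1 and 86.3 CPM in replicates 1, 2 and 3. The senescent cultures were close to each other, with a standard deviation of 11.1% of the mean, against 121% in the control cultures. The log2 fold change was 4.74.

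Prl2c5 was far lower. It had 6, 13 and 1 reads in the control cultures, or 0.134, 0.247 and 0.0180 CPM, and 85, 64 and 48 reads in the senescent cultures, or 1.69, 1.07 and 1.08 CPM. The gene passed the filter on low values only through the senescent libraries. Over the pooled 20 control and 197 senescent reads the ratio was 9.76 (95% exact interval 6.15 to 16.3, counting error only). How many of these reads came from Prl2c2 or Prl2c3 was not tested. The log2 fold change of Prl2c5 was 1.49 with 0.5 added to each value, 2.67 with 0.1 added and 3.28 in edgeR's model of the reads, so the size depends on the scale.

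**Figure D2:**
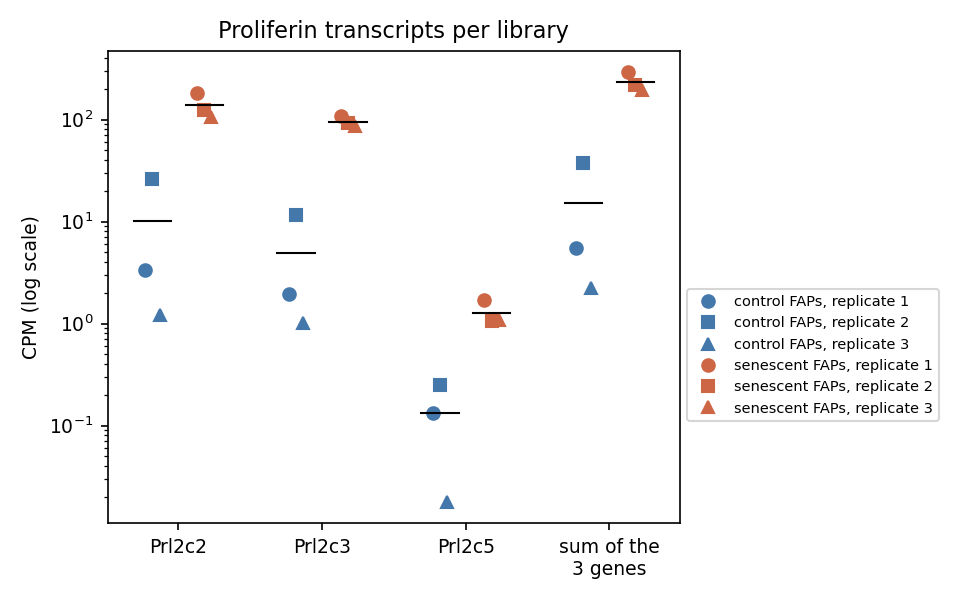
CPM on a log axis for each proliferin gene and for their sum, with 1 point per library, colored by group and shaped by replicate number, and a line at each group mean (n = 3). All senescent points lie above all control points of the same gene, and control replicate 2 is the highest control point for each.

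For each of the 3 genes every senescent library exceeded every control library. Over all genes tested, 57.4% had groups that did not overlap and 26.5% had the senescent group wholly above the control group, and because the members were chosen on this contrast nothing is read from their count. Per kilobase of transcript, the levels in senescent FAPs were ordered Prl2c2, Prl2c3, Prl2c5, at 163 ± 46.9, 111 ± 12.4 and 1.52 ± 0.419 CPM per kb (SD, n = 3 each). The senescent values of the 2 higher genes did not overlap, at 127 to 216 CPM per kb for Prl2c2 and 101 to 125 CPM per kb for Prl2c3, but the uncertain division of reads bears on that order. In control FAPs the same 2 genes overlapped, at 1.43 to 30.9 and 1.19 to 13.6 CPM per kb.

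The proportions of the genes varied far less than their sum. Prl2c2 took 61.6%, 68.6% and 53.6% of the proliferin reads in the control cultures and 62.6%, 56.7% and 55.1% in the senescent cultures. The exact 95% interval ran from 44.5% to 62.6% in control replicate 3, which had 125 proliferin reads, and from 61.8% to 63.4% in senescent replicate 1, which had 14645. The shares of the groups overlapped. The ratio of Prl2c2 to Prl2c3 reads lay between 1.18 and 2.23 over the 6 libraries. Prl2c5 took 0.493% to 0.580% of the proliferin reads in the senescent libraries and 0.652% (exact 95% interval 0.348% to 1.11%) in control replicate 2. In control replicate 1 it took 2.45% (exact 95% interval 0.904% to 5.25%, 6 reads), and that interval lay above those of the senescent libraries, the highest of which ended at 0.736%. In control replicate 3 it had 1 read of 125. How far shared reads set these proportions was not tested.

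**Figure D3:**
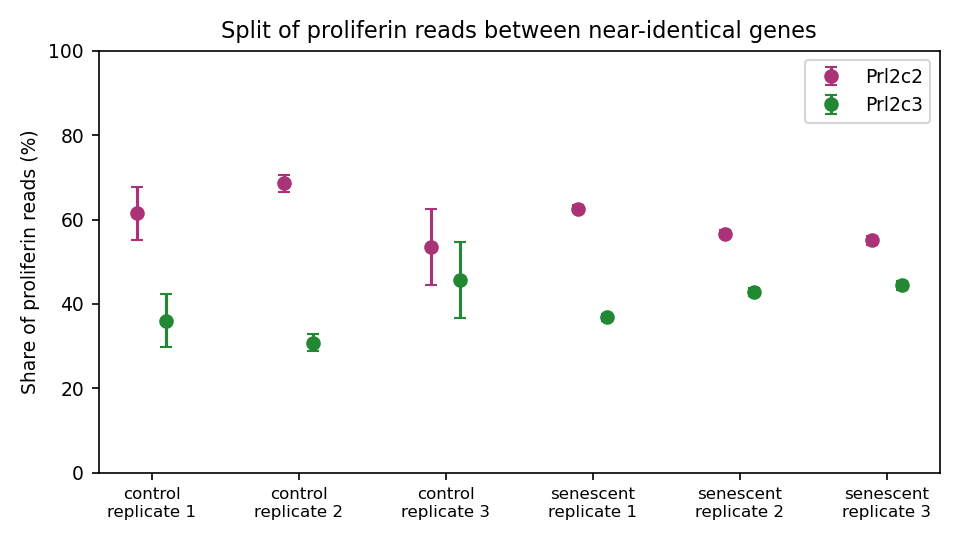
Share of the proliferin reads assigned to Prl2c2 and to Prl2c3 (vertical axis, percent) in each of the 6 libraries, with exact 95% intervals for counting error. Prl2c2 has the larger share in every library, from 53.6% to 68.6%, and the intervals of the 2 genes overlap in control replicate 3.

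Control replicate 2 stood apart from the other control cultures. Its proliferin sum was 9.83 times the mean of control replicates 1 and 3. Between same-numbered cultures, the senescent sum was 53.2, 5.73 and 86.6 times the control sum for replicates 1, 2 and 3. Beyond the proliferin genes, the same culture was also most often the control at the end toward the senescent group, though by little among genes called lower. Among the 3218 genes called higher in senescent FAPs, control replicate 2 was the highest of the control libraries for 42.6%, against 24.5% for control replicate 1 and 32.9% for control replicate 3. Among the genes called lower, it was the lowest of them for 39.0%, against 24.2% and 36.7% for control replicates 1 and 3.

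Genes of proliferating cells also had their highest level in control replicate 2. Mki67, a marker of proliferating cells, had 125, 247 and 101 CPM in the control cultures and 19.0, 9.80 and 9.27 CPM in the senescent cultures. Its log2 fold change was -3.55 (standard error 0.37, limma adjusted p = 4.45e-04). Within each group, the order of the sum over cultures thus matched that of Mki67, while between the groups the direction was opposite. With each group centered on its own mean, Pearson's r of log2 values with the proliferin sum over the 6 libraries was 0.86 for Mki67, 0.93 for Top2a, 0.89 for Ccna2, 0.95 for Ccnb1, 0.95 for Cdk1 and 0.87 for Plk1. Without centering, r lay between -0.79 and -0.72 for these 6 genes of the cell cycle. Control replicate 2 weighs heavily in the centered values, and the 6 points share their libraries, so these are descriptions only. Cdkn1a, which encodes the cell cycle inhibitor p21, had 259, 274 and 336 CPM in the control cultures and 1017 to 1060 CPM in the senescent cultures, so that control replicate 2 lay with the other control cultures. Its log2 fold change was 1.85 (standard error 0.11, limma adjusted p = 1.01e-04). The other cell cycle inhibitor genes looked at, Cdkn2a and Cdkn2b, were not called. Cdkn2a, which encodes p16 and p19, averaged 85.5 and 90.0 CPM in control and senescent FAPs (limma adjusted p = 0.765, centered r -0.81), and Cdkn2b, which encodes p15, 68.4 and 83.9 CPM (limma adjusted p = 0.282, and 0.0236 with the replicate number as a block). By qPCR the authors reported more p16 in etoposide-treated than in control FAPs. The Cdkn2a value here does not separate p16 from p19.

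**Figure D4:**
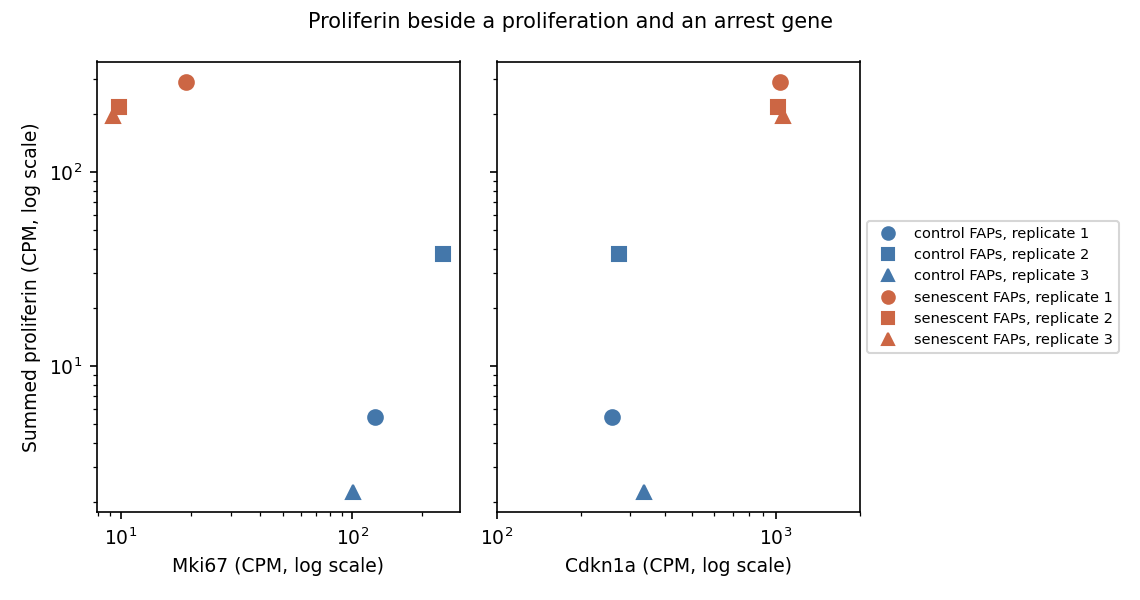
Summed proliferin CPM (vertical, log axis) against Mki67 (left) and Cdkn1a (right) CPM (horizontal, log axes) in the 6 libraries, colored by group and shaped by replicate number. Control replicate 2 has the highest Mki67 value, 247 CPM, and the highest control proliferin sum, 37.9 CPM, while its Cdkn1a value of 274 CPM lies among the other control values.

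The genes whose group-centered pattern was most like the proliferin sum over the 6 libraries were D330050G23Rik, Nde1, Tipin, Mastl and Kntc1, with r from 0.997 to 0.999. Of all 14773 other genes tested, 3.70% had a centered r above 0.9. Nde1, Mastl and Kntc1 act in mitosis and Tipin at the replication fork. Kntc1, a kinetochore protein, had 19.3, 39.3 and 14.5 CPM in the control cultures and 4.67, 3.86 and 3.65 CPM in the senescent cultures. Without centering, the most alike were P4htm, Ly6e, Gtf3c1, the chemokine gene Ccl8 and Etv1, with r from 0.992 to 0.994, and 6.87% of genes had r above 0.9. Ccl8 had 1.54, 8.92 and 1.36 CPM in the control cultures and 52.0, 48.1 and 40.4 CPM in the senescent cultures, and thus also had its highest control value in control replicate 2. The uncentered measure picks genes that differ between the groups, so no test is given for them.

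No other gene of the prolactin and growth hormone family was listed, out of 24 looked for, which included Prl, Gh, the placental lactogens and the proliferin-related gene Prl7d1. Every listed gene reached 8 or more reads in 3 of the libraries, so genes below that level cannot be told from absent ones. Prl2c1, the remaining gene of the Prl2c group, lies 14657 kb away on the same chromosome among the other prolactin genes and was not listed either. The placental source of proliferins was checked with 21 trophoblast and placenta markers. Of these, 16 were not listed, among them Tpbpa, Hand1, Gcm1, Krt8 and Krt18. The 5 listed markers summed to 5.15 to 7.54 CPM in control and 6.11 to 7.66 CPM in senescent FAPs. Of these, Tfap2c, Syna and Eomes stayed below the filter on low values. Tfap2c had 0, 0.0380 and 0.0180 CPM in the control cultures and 0.258, 0.201 and 0.270 CPM in the senescent cultures. Syna averaged 0.111 and 0.338 CPM and Eomes 0.241 and 0.383 CPM in control and senescent FAPs. For all 3 genes every senescent library lay above every control library. The same held for 26.5% of all genes tested, which do not include these 3. With no filter, Tfap2c was called higher (limma adjusted p = 0.00895), and Syna and Eomes were not (0.0570 and 0.151). Pappa2 and Krt7 passed the filter. The groups did not overlap for Krt7 either, with the senescent libraries higher, while they overlapped for Pappa2. Pappa2 had 2.63 ± 1.29 and 2.59 ± 0.339 CPM and Krt7 3.15 ± 0.0388 and 3.47 ± 0.294 CPM in control and senescent FAPs (SD, n = 3 each), and neither was called (limma adjusted p = 0.885 and 0.482).

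All 8 markers of FAPs were listed, and 5 of them were called higher and 1 lower in senescent FAPs, against 21.8% and 24.3% of all genes tested. Pdgfra was at 126 to 254 CPM over the 6 libraries and was not called (limma adjusted p = 0.465). Cd34 rose from 22.5 to 70.1 CPM, Dcn from 62.3 to 197 CPM, Gsn from 821 to 1489 CPM and Ly6a, which encodes SCA-1, from 372 to 625 CPM on average (limma adjusted p = 6.99e-04, 0.00465, 0.00101 and 0.0393). Lum, at 0.179 to 0.951 CPM in the control cultures, rose to 3.39 CPM on average and passed the filter only through the senescent libraries. Col1a1 fell from 15545 to 3116 CPM (limma adjusted p = 0.00150). Ly6a was not called without senescent replicate 1, 2 or 3 (adjusted p from 0.0670 to 0.122), and Col3a1, not called otherwise, was called lower without control replicate 2 (0.0104).

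Of 8 leukocyte markers 4 were listed, and Ptprc, which encodes CD45, and Adgre1 were not. The 4 listed markers summed to 8.85 to 12.0 CPM in control and 21.1 to 26.0 CPM in senescent FAPs. Of them 3 were called higher, against 21.8% of all genes tested, and these 3, Cd53, Cd68 and Itgam, summed to 2.23 to 5.76 CPM in control and 13.01 to 18.8 CPM in senescent FAPs. Itgam passed the filter only through the senescent libraries. Csf1r, at 6.74 and 7.56 CPM on average, was not called (limma adjusted p = 0.343) except on plain library totals (0.0456). Cd53, at 0.960, 3.92 and 1.08 CPM in the control cultures and 8.36 to 13.7 CPM in senescent FAPs, was also highest among the controls in control replicate 2. The endothelial markers summed to 17.95 to 38.4 and 22.2 to 29.2 CPM, with Tie1 and Emcn not listed. Most of that sum was Tek, which was called only without control replicate 3 (limma adjusted p = 0.688, and 0.0446 without that library). Pecam1, which encodes the CD31 of the sort, rose from 0.706 to 1.70 CPM on average and Kdr fell from 4.05 to 2.20 CPM (limma adjusted p = 0.00897 and 0.00989). At 0.625, 1.03 and 0.467 CPM in the control cultures, Pecam1 also passed the filter only through the senescent libraries. The myogenic markers summed to 14.3 to 19.3 and 23.4 to 30.2 CPM, with Pax7, Myf5, Myod1 and Myog not listed. Itga7, which encodes the α7-integrin of the sort, rose from 11.1 to 20.2 CPM on average (limma adjusted p = 0.00771). The part of such cells in the proliferin levels was not tested.

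Of the genes near the cluster, none had a log2 fold change as large as that of Prl2c2 or Prl2c3. The proliferin genes were chosen on this contrast and their neighbors were not, so nothing is read from that comparison. Gng4 came close to Prl2c5 on the log2 scale used here, which understates the change of low genes. In edgeR's model of the reads they were farther apart, with log2 fold changes of 3.28 for Prl2c5 and 1.94 for Gng4. The 5 nearest listed genes on each side were tested, and 4 were called higher and 1 lower, against 21.8% and 24.3% of all genes tested, 46.1% in either direction. In all, 3218 genes were higher and 3592 lower, and on plain library totals 5056 were higher and 1933 lower. Gpr137b, 166 kb beyond Prl2c5, rose by 0.89 on the log2 scale (standard error 0.13, limma adjusted p = 0.00146), from 10.8 to 20.4 CPM on average. Gng4, 592 kb beyond Prl2c5, rose by 1.33 (limma adjusted p = 0.00361), from 0.592 to 2.23 CPM. With 0.469, 0.913 and 0.395 CPM in the control cultures, Gng4 passed the filter on low values only through the senescent libraries. Lgals8 and Lyst rose by 0.39 and 0.35, and Heatr1 fell by 0.70. The 5 that were not called, Ero1lb, Gpr137b-ps, Gm2399, Gm2423 and Nid1, had log2 fold changes between -0.15 and 0.27. Gpr137b-ps is a copy of Gpr137b, and counting could have divided reads between them. Without senescent replicate 1, 2 or 3, Lgals8 was no longer called (adjusted p from 0.0609 to 0.0798), nor was Lyst without control replicate 3 or senescent replicate 3 (0.0576 and 0.0531).

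On the receptor side, Igf2r had 337, 369 and 271 CPM in the control cultures and 500, 369 and 361 CPM in the senescent cultures. The groups overlapped, and the log2 fold change of 0.33 (standard error 0.16) was not called (limma adjusted p = 0.131). On the scale of plain library totals it was 0.54 (adjusted p = 0.0257), and that scaling moved the median of all genes from -0.03 to 0.17. The prolactin receptor gene Prlr had 0.0670, 0.361 and 0.108 CPM in the control cultures and 1.05, 1.66 and 1.40 CPM in the senescent cultures. It rose by 1.47 (standard error 0.22, limma adjusted p = 0.00163). Like Prl2c5, it passed the filter only through the senescent libraries.

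Of the 13 genes of these receptors and of STAT5 signaling, the pathway behind the prolactin receptor, 1 was called higher and 4 lower, against 21.8% and 24.3% of all genes tested (46.1% in either direction). The median log2 fold change of the list was -0.14, against -0.03 over all genes tested. Socs3, an inhibitor of the pathway, fell by 1.12 (standard error 0.18, limma adjusted p = 0.00222), from 61.6 ± 15.5 to 27.5 ± 1.41 CPM (SD, n = 3 each). Socs2, another inhibitor and a target of STAT5, fell by 0.67 (adjusted p = 0.00219). The inhibitor genes Socs1 and Cish were not called, with log2 fold changes of -0.51 and 0.12 (adjusted p = 0.0563 and 0.704). Socs1 was called lower with the replicate number as a block (0.0387), without control replicate 2 (0.0367) and without senescent replicate 1 (0.0322). The phosphatase genes Ptpn1 and Ptpn2 fell by 0.75 and 0.55 (adjusted p = 0.00241 and 0.00288). Without control replicate 2, 2 genes were called higher and 7 lower.

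Among the 6 genes of mannose 6-phosphate recognition, 2 were called higher and 1 lower, with a median of 0.16, where 46.1% of all genes tested were called. Igf2, whose product shares the receptor with proliferin, had 7.03, 4.45 and 11.8 CPM in the control cultures and 20.1, 24.4 and 24.4 CPM in the senescent cultures, and rose by 1.60 (standard error 0.30, limma adjusted p = 0.00422). M6pr, which encodes the smaller of the mannose 6-phosphate receptors, fell by 0.54 (standard error 0.07, limma adjusted p = 9.75e-04). Gnptg, a subunit of the enzyme that begins to attach the tag, rose by 0.38 (adjusted p = 0.0317). Without control replicate 1 or 3 or senescent replicate 2 or 3 Gnptg was not called, with an adjusted p from 0.0848 to 0.119.

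Growth factors that are known inducers of proliferin, and their receptors, gave 5 genes higher and 3 lower of 14, with a median of 0.18, where 21.8% and 24.3% of all genes tested were higher and lower. Fgf2, which encodes the bFGF that the medium also held, had 79.3, 158 and 96.0 CPM in the control cultures and 184, 222 and 248 CPM in the senescent cultures. It rose by 1.02 (standard error 0.24, limma adjusted p = 0.0107), and control replicate 2 was the highest control culture. For Igf2, Ly6a and Cd34, which were also called higher, control replicate 2 was the lowest control culture. Fgf1 rose by 2.09 (adjusted p = 8.74e-04), from 0.663 to 4.40 CPM on average. With 0.335, 0.989 and 0.664 CPM in the control cultures, Fgf1 passed the filter on low values only through the senescent libraries. The receptor genes Egfr and Tgfbr2 rose by 0.67 and 0.60 (adjusted p = 0.00143 and 0.00219). Pdgfb rose by 1.31 (adjusted p = 0.0299), though its groups overlapped. At 0.335, 1.73 and 0.682 CPM in the control cultures, Pdgfb too passed the filter only through the senescent libraries. Tgfb3, Fgfr2 and Pdgfa fell by 0.68, 0.65 and 0.40 (adjusted p = 0.00162, 0.00650 and 0.0231). Without control replicate 1 or 3 or senescent replicate 2 or 3 Pdgfb was not called (adjusted p from 0.0779 to 0.108). Without senescent replicate 1, 2 or 3 Pdgfa was not called (adjusted p from 0.0579 to 0.0675), and it was not called on division by library totals (0.225).

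Of 7 AP-1 subunit genes, 1 was called higher and 2 lower (1 on plain library totals), and the median was -0.22, where 46.1% of all genes tested were called. Fos had 245, 191 and 229 CPM in the control cultures and 143, 138 and 169 CPM in the senescent cultures, and fell by 0.56 (standard error 0.12, limma adjusted p = 0.00723). Junb fell by 0.47 (adjusted p = 0.0329). Fosl1, which encodes the subunit Fra-1, rose by 0.39 (standard error 0.14, limma adjusted p = 0.0497), from 27.7 ± 5.61 to 36.1 ± 2.08 CPM (SD, n = 3 each). The calls of Junb and Fosl1 were lost without any one library other than control replicate 2, with adjusted p from 0.0567 to 0.115 and from 0.0942 to 0.155. Fosl1 was also not called with 1 added to each value (0.0501) or with a filter at 2 CPM (0.0515), and Junb was not called on division by library totals (0.169).

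**Figure D5:**
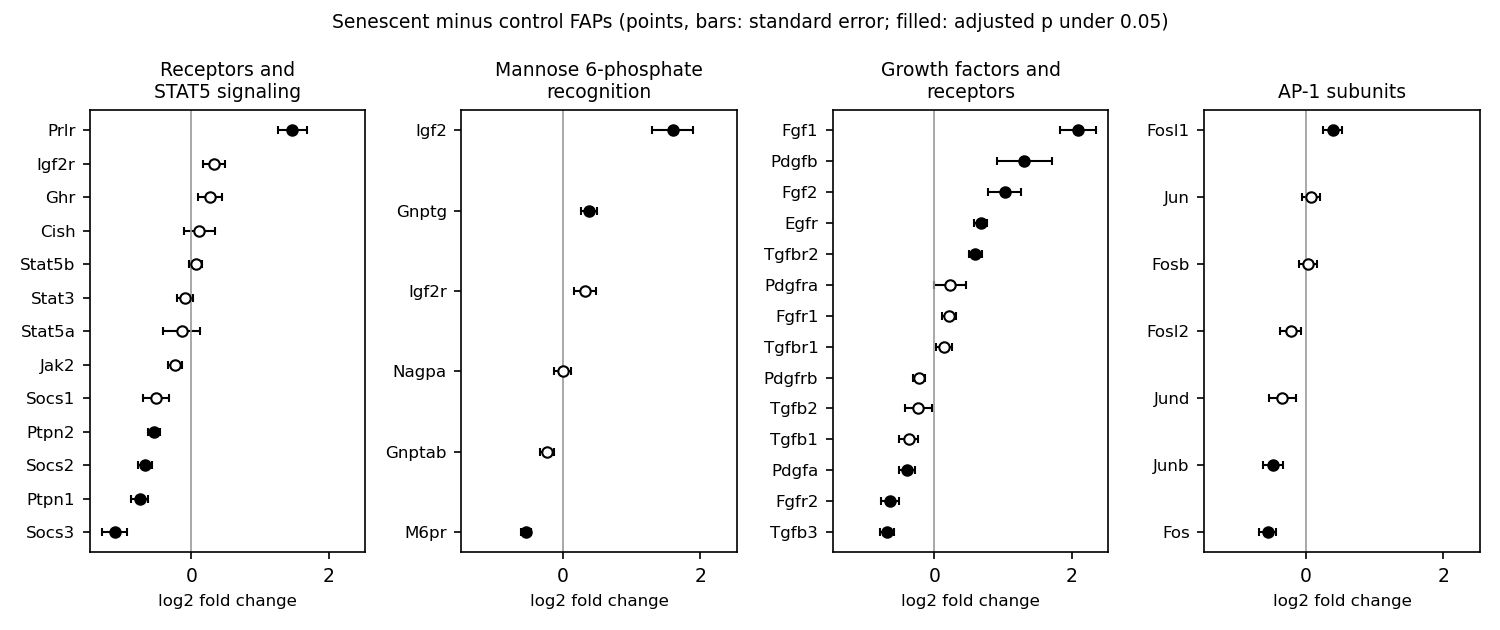
Log2 fold changes of senescent minus control FAPs (horizontal axis, log2(CPM + 0.5) scale) for the genes of 4 lists around proliferin, with bars of 1 standard error, n = 3 libraries per group and filled points for a limma adjusted p under 0.05. Fgf1 at 2.09, Igf2 at 1.60 and Prlr at 1.47 lie farthest to the right, and Socs3 at -1.12 farthest to the left. Fgf1, Prlr and Pdgfb passed the filter on low values only through the senescent libraries.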

How the data were processed

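RNA-seq of 3 control and 3 senescent FAP cultures was analyzed. Libraries had been prepared with a stranded mRNA kit and sequenced on an Illumina HiSeq instrument. The authors counted reads per gene and deposited them as CPM of an effective library size (a scaled signal, from edgeR 3.10 in R 3.6.0, on mm10 per the labels). The aligner, the counting tool, the annotation and the gene filter are not given in the sources used here. Whole reads were recovered for 100% of values (tolerance 0.01 reads). A line that names no gene (0.0041% to 0.0070% of reads per library) was dropped. All columns belonged to the 6 samples. Because the deposited values are normalized, log2(CPM + 0.5) was tested with limma 3.58.1 (R 4.3.3, two-sided, variance trend). The fit was tested on simulated data. Genes were called at an adjusted p under 0.05.

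The proliferin genes and the 11 gene lists were chosen with earlier results of these data known. Named were the proliferin genes, Igf2r, Prlr, called genes of the pathway lists, trophoblast markers called or at 1 CPM or more, the nearest 5 listed genes on each side, and the 5 genes most correlated with the proliferin sum before and after centering. Other genes in the text were picked with their values in view. Alternatives were pseudocounts of 0.1 and 1, no filter or 2 CPM, median-of-ratios scaling, division by library totals, edgeR 4.0.16 and DESeq2 1.42.0 on recovered reads, leaving out each library, and the replicate number as a block. Deviations of same-numbered cultures from their group means correlated at 0.54, 0.31 and 0.21 for replicates 1, 2 and 3. Between unlike-numbered cultures r lay between -0.36 and 0.15, the highest for control replicate 2 with senescent replicate 3. Deviations within a group of 3 are tied to each other, so these values cannot settle whether the numbers pair the cultures. The tests in the text are unpaired, and the block was an alternative.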

Additional observations from a re-analysis of the deposited data

How the results depend on the processing

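The log2 difference of the proliferin sum stayed between 3.93 and 5.84 over all alternatives, and it was 3.97 with edgeR and 3.98 with DESeq2. With the replicate number as a block the difference was again 4.75, 7523 genes were called in place of 6810, 6695 of them in both fits, and of the genes named only Cdkn2b and Socs1 changed their call (adjusted p = 0.0236 and 0.0387). The block gave 6 genes lower among the receptors and STAT5 genes, 4 among the growth factors and receptors and 3 among the AP-1 genes. Division by library totals alone, which moved the median of all genes to 0.17, gave 5056 genes higher and 1933 lower, 3 genes higher among the receptors and STAT5 genes, and 1 lower among the AP-1 genes. Without senescent replicate 2, 2130 genes were higher. With a filter at 2 CPM none of the receptor and STAT5 genes was higher (0), since Prlr was no longer tested, and 0 AP-1 genes were, as with a pseudocount of 1. Without a filter 1 trophoblast marker, Tfap2c, was called higher. Leaving out each library in turn gave 2130 to 3405 genes higher and 2416 to 3875 lower, 1 to 2 higher and 4 to 7 lower among receptor and STAT5 genes, 1 to 2 higher for mannose 6-phosphate recognition, and 0 to 1 higher and 1 to 4 lower for AP-1. The log2 fold change of Prl2c5 ranged from 1.00 to 3.31 over the alternatives. Among genes that were not called, Gm2423 and Nid1 changed sign on division by library totals (0.034 and 0.079). When each library was left out in turn, Pappa2 ranged from -0.22 to 0.37, Gpr137b-ps from -0.16 to 0.11, Gm2399 from -0.024 to 0.42, Cdkn2a from -0.13 to 0.46, and Cish from -0.078 to 0.25. Apart from those whose construction is given, the cause was not tested. Of the proliferin genes, Prl2c5 is limited by depth, with 1 to 13 reads per control library, and by reads that could belong to Prl2c2 or Prl2c3.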
